A study of Mus musculus with 12 samples.

Results

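The libraries described here are 6 of the 12 in the series, 3 from dishes given 1 mM adenine for 24 h and 3 from control dishes (CTL), taken by their treatment labels. The cells were immortalized embryonic fibroblasts of PER2::LUC mice on a C57 background, whose clock protein PER2 carries a luciferase tag, and they were treated after they had reached confluence. Adenine was dissolved in HCl, so the medium of every group, CTL included, contained 3.3 mM HCl. The other 6 dishes received 1 mM S-adenosylmethionine (SAM), the methyl donor of the cell, or 10 µM deazaneplanocin A (DZ), an inhibitor of the enzyme AHCY, for the same time. The 3 dishes of a group are separate dishes of 1 cell line, so the p-values measure the spread between dishes and not between animals.

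Adenine is a purine base that cells take back into AMP with the enzyme APRT, at the cost of phosphoribosyl pyrophosphate. It is also the base released when SAM is broken down through the methionine salvage pathway, and it inhibits AHCY, which removes S-adenosylhomocysteine, the by-product and inhibitor of methyl transfer. The comparison asks which transcripts differ when adenine is added to the medium without added SAM. The paper reports that adenine also raised SAM and S-adenosylhomocysteine inside the cells. Which transcripts follow the free base itself and which follow such changes was not tested. Confluent fibroblasts stop dividing largely through contact and keep the genes of DNA replication and mitosis low, under control of the E2F factors, the pocket proteins and the MYBL2 and FOXM1 factors, while ribosomal protein genes make up a large share of their mRNA.

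Levels are log2 CPM, a read number relative to the library total on the scaling of the authors, and differences are log2 fold changes, so that 1 means a doubling. The libraries held 45649534 to 49644171 reads on the listed genes in CTL and 49117495 to 55408822 in adenine, and no gene had fewer than 46. The median SD between dishes of a group was 0.0556 in CTL and 0.0518 in adenine on the log2 scale, and the first principal component, which separated the treatments, held 91.2% of the variance of the 6 libraries. The 12 fibroblast markers searched for were all in the table, with a summed level of 12100 to 12500 CPM in CTL and 18300 to 20400 in adenine, and 10 of them were higher in adenine. Endothelial (0 of 7) and epithelial (0 of 8) markers were not in the table, 1 of 10 leukocyte markers (Cd68, 3.03 to 4.0 CPM in CTL and 10.8 to 12.3 in adenine) and 1 of 6 skeletal muscle markers (Acta1, 1.48 to 1.65 CPM in CTL and 1.53 to 3.44 in adenine) were, and the 2 adipocyte markers found, Pparg and Fabp4, summed to 9.86 to 10.1 CPM in CTL and 7.72 to 8.83 in adenine. Of 6 neural markers, Sox2, Tubb3, Map2 and Nes were found and were higher in adenine, summing to 71.8 to 74.6 CPM in CTL and 169 to 177 in adenine, and their part in the results was not tested. In such bulk RNA, more cells of one kind and more RNA per cell cannot be told apart.

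Of the 12591 genes tested with limma, 61.6% were called at a Benjamini-Hochberg false discovery rate (FDR) under 0.01, 30.6% higher and 31.0% lower in adenine, and in 74.7% the 3 adenine dishes lay wholly above or wholly below the 3 CTL dishes. Of those called, 49.7% were higher, a share that was 58.3% with plain read totals and 43.0% with median centring in place of the scaling of the authors. The shares of called genes are the background for every count that follows, and the median log2 fold change over all genes was -0.003. Rises and falls were unequal in size. Among called genes, 119 rose and 11 fell by at least 2 on the log2 scale, and 9 rose and 1 fell by at least 3. The authors kept only genes of at least 1 CPM in every sample. Genes that fell below this level in any group are therefore missing from these counts, as are genes that rose from below it. How far this filter shapes the difference between rises and falls was not tested.

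**Figure D1:**
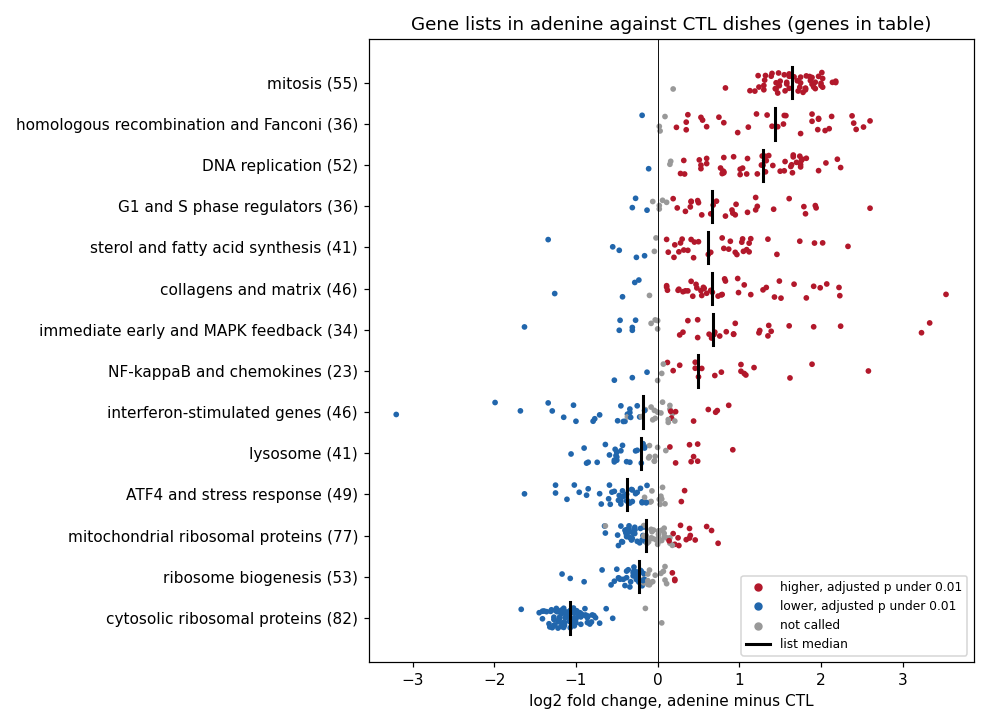
Log2 fold change (adenine minus CTL, horizontal axis) of each member of 14 gene lists, 1 point per gene, with the number of members in the table in brackets and the list median as a black bar. The mitosis genes lie between 0.19 and 2.18 around a median of 1.65, and the cytosolic ribosomal protein genes around -1.08.

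Genes of cell division were higher in the adenine dishes. In the mitosis list, 54 of 55 genes rose and none fell, with a median log2 fold change of 1.65, and their share of all reads went from 0.178% to 0.187% in CTL to 0.548% to 0.573% in adenine. Of 52 DNA replication genes, 49 rose and 1 fell (median 1.29), and of 36 genes of homologous recombination and the Fanconi pathway, which repair broken or crosslinked DNA, 32 rose and 1 fell (median 1.44). Against a background of 30.6% of genes rising, these are 3 lists in which nearly every member did.

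The mitotic genes included cyclins, motors and kinetochore parts. Ccnb2, a cyclin that activates CDK1 at entry into mitosis (chromosome 9, 70314966 to 70328874), was 4.11, 3.92 and 3.97 log2 CPM in the CTL dishes and 6.11, 6.12 and 6.18 in the adenine dishes, with no overlap. Its log2 fold change was 2.14 (standard error, SE, 0.065 and adjusted p = 3.57e-13). Mki67, the antigen used to score proliferating cells, was 6.47, 6.41 and 6.35 log2 CPM in CTL and 8.38, 8.44 and 8.47 in adenine, a log2 fold change of 2.02. The rises were similar in the kinetochore genes Knl1 (2.18) and Cenpm (2.18) and in Espl1 (2.02), the separase that cuts cohesin. By role, 11 of 11 mitotic kinases and cyclins, 23 of 23 spindle and kinetochore genes and 20 of 21 genes of condensation, cohesion and exit rose. The exception was Pttg1, the securin that holds separase inactive, at 4.13, 4.13 and 4.19 log2 CPM in CTL and 4.25, 4.42 and 4.33 in adenine (log2 fold change 0.19, 95% interval 0.04 to 0.33, adjusted p = 0.0229).

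Among replication genes, Clspn, a fork checkpoint adaptor, rose by 2.24 on the log2 scale, Chtf18, a clamp loader subunit, by 2.20, Cdc6, which loads the helicase at origins, by 2.06, Uhrf1, which carries DNA methylation through the fork, by 1.97, and the polymerase gene Pole by 1.82. Cdc6 was 2.15, 2.09 and 2.18 log2 CPM in CTL and 4.26, 4.13 and 4.22 in adenine. The 6 subunits of the MCM helicase, which work as 1 complex, did not move together. Mcm5 rose by 1.66, Mcm4 by 1.36, Mcm3 by 1.28, Mcm6 by 1.01 and Mcm7 by 0.60, but Mcm2 was 7.90, 7.83 and 7.94 log2 CPM in the CTL dishes and 7.78, 7.75 and 7.82 in the adenine dishes. Each of these adenine values lies below each CTL value, and the log2 fold change of Mcm2 was -0.11 (SE 0.032 and adjusted p = 0.00693), the single called fall in the list. Orc2 (0.16) and Rpa3 (0.15) were not called.

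Regulators of the step from G1 to S phase also rose, 28 of 36 with 3 falls (median 0.67). E2f7, a repressor that E2F factors themselves induce (chromosome 10, 110581300 to 110623245), was 2.81, 2.67 and 2.65 log2 CPM in CTL and 5.34, 5.26 and 5.31 in adenine, a log2 fold change of 2.60 (SE 0.082 and adjusted p = 5.21e-13). Mybl2 (1.94), Mybl1 (1.93), Foxm1 (1.81) and E2f8 (1.79) followed, all of them transcription factors of the cell cycle. Ccnd1, the cyclin D gene that answers growth signals, rose from 8.50 ± 0.032 (SD, n = 3) to 9.60 ± 0.0074 log2 CPM, and E2f1 rose by 0.91. Inhibitors of the cyclin-dependent kinases were higher as well, 5 of 6, among them Cdkn1a, which was 3.98, 3.90 and 3.77 log2 CPM in CTL and 4.39, 4.45 and 4.45 in adenine (log2 fold change 0.54, adjusted p = 6.01e-05). Myc fell by 0.31, and Rb1, at a log2 fold change of 0.02, was not called.

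The repair genes with the largest rises were Fanci (log2 fold change 2.60), Eme1 (2.52), Brip1 (2.43), Brca1 (2.40) and Rad54l (2.38). The CTL values of Eme1 (1.41, 0.76 and 0.61 log2 CPM) are near the floor of the table. Brca1, which directs strand exchange at breaks, was 3.34, 3.47 and 3.36 log2 CPM in CTL and 5.79, 5.73 and 5.84 in adenine, with the groups far apart. The kinase gene Atr fell by 0.19, whereas Atm (0.09) was not called. The p53 targets did not rise as a group, with 7 of 26 higher and 10 lower and a median of 0.04 that turned to -0.01 under median centring. Within them Pidd1 (1.54), Sesn1 (1.25) and Btg2 (0.97) rose and Eda2r fell by 0.81, and Trp53 itself fell by 0.29 on the log2 scale.

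**Figure D2:**
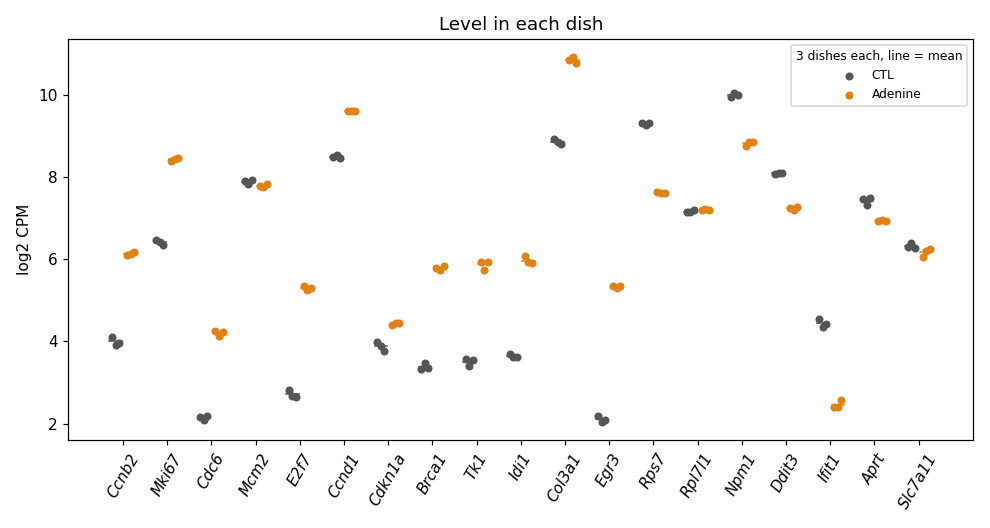
Level of 19 genes in each of the 3 CTL and 3 adenine dishes (log2 CPM, vertical axis), 1 point per dish with a line at the group mean. Ccnb2 and E2f7 are higher in adenine, Rps7 and Npm1 lower, and Mcm2 and Rpl7l1 lie close together in the groups.

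Of 9 genes of deoxynucleotide synthesis, the supply of replication, 6 rose and 2 fell (median 0.36), and of 10 of pyrimidine salvage 4 rose and 4 fell. Tk1, thymidine kinase, was 3.58, 3.41 and 3.54 log2 CPM in CTL and 5.94, 5.75 and 5.93 in adenine (log2 fold change 2.36, adjusted p = 6.32e-14). Dck (1.33), Rrm2 (1.28) and Tyms (1.24) rose less, and 14 of 24 pyrimidine and deoxynucleotide genes rose against 7 that fell (median 0.23). In the synthesis of UMP, Cad and Umps rose by 0.22 and 0.28 on the log2 scale.

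The genes that handle purines moved less. Aprt, which joins adenine to phosphoribosyl pyrophosphate (chromosome 8, 123301184 to 123303648), was 7.47, 7.32 and 7.48 log2 CPM in the CTL dishes and 6.94, 6.95 and 6.93 in the adenine dishes. These do not overlap, and the log2 fold change was -0.48 (SE 0.047 and adjusted p = 2.09e-07). Hprt1, which salvages the other purine bases, differed by -0.11 (95% interval -0.18 to -0.03, adjusted p = 0.0133) and was not called. Nt5e, the ectonucleotidase that makes adenosine outside the cell, fell by 1.29, Xdh, xanthine dehydrogenase, fell by 0.69, and Slc29a1, the equilibrative nucleoside transporter, rose by 0.79. Adk, adenosine kinase, rose by 0.23. Counted together, 7 of 23 salvage and handling genes rose and 6 fell, with a median of 0.04 that became -0.01 under median centring.

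In de novo purine synthesis, 3 of 15 genes rose and 6 fell (median -0.08). Ppat, the committing enzyme, rose by 0.25 and Pfas by 0.38, while Atic, which closes the ring, fell by 0.46 on the log2 scale. Adss1, an adenylosuccinate synthase, was low, at 2.12, 2.46 and 2.42 log2 CPM in CTL and 1.10, 0.78 and 0.25 in adenine. The dishes of Adss1 spread widely in adenine without meeting those of CTL (log2 fold change -1.63, SE 0.21). Prps1 (-0.01, adjusted p = 0.763) and Prps2 (0.12, adjusted p = 0.0528), which make phosphoribosyl pyrophosphate, were not called.

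Cytosolic ribosomal protein genes fell together. Of 82 in the table, 80 fell and none rose, with a median log2 fold change of -1.08, and they took 4.79% to 4.97% of the reads of the CTL libraries and 2.37% to 2.41% of those of the adenine libraries. Rps7, a part of the small subunit (chromosome 12, 28677933 to 28686292), was 9.31, 9.27 and 9.32 log2 CPM in CTL and 7.63, 7.62 and 7.62 in adenine, and its log2 fold change of -1.67 (SE 0.041 and adjusted p = 3.42e-14) was the lowest of the list. The 2 that were not called, Rpl7l1 (7.14, 7.14 and 7.19 log2 CPM in CTL and 7.21, 7.22 and 7.20 in adenine) and Rps27l (log2 fold change -0.15), are paralogs outside the usual set of ribosomal subunit genes. Many ribosomal protein genes have processed pseudogenes, whose reads cannot be told apart with certainty from those of the parent gene. Of 148 pseudogenes named after ribosomal proteins, 144 were called lower (median -1.11), and of 1115 pseudogenes with other names 450 were (median -0.20). They were split by symbol alone, so the 1115 can include ribosomal protein pseudogenes that carry other names.

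Genes of the mitochondrial ribosome and of ribosome biogenesis had smaller values. Among 77 mitochondrial ribosomal protein genes 34 fell and 14 rose, with a median of -0.14 and a range from -0.65 (Mrpl23) to 0.74 (Mrps25). Nuclear-encoded respiratory chain subunits had 35 of 79 lower and 14 higher and a median of -0.06, which was 0.00 with plain read totals as the scaling. Of 53 genes of ribosome biogenesis 34 fell and 3 rose (median -0.23), led by Npm1 (-1.17), which shuttles ribosomal particles, and Taf1d (-1.07), a factor of RNA polymerase I. Npm1 was 9.95, 10.04 and 10.0 log2 CPM in CTL and 8.76, 8.86 and 8.85 in adenine. Proteasome subunits had 18 of 35 lower and 2 higher (median -0.14), with Psmc2 falling by 0.83.

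**Figure D3:**
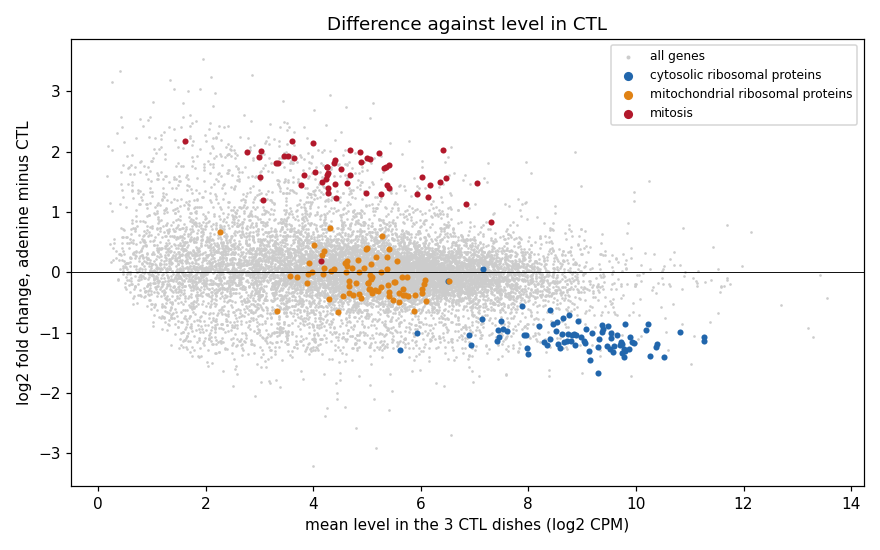
Log2 fold change (adenine minus CTL, vertical axis) against the mean level in CTL (log2 CPM, horizontal axis) for all 12591 genes in grey, with 3 lists in colour. The cytosolic ribosomal protein genes form a band around -1.08, the mitochondrial ones lie around -0.14, and the mitosis genes around 1.65.

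Sterol synthesis rose along the pathway. Of its 20 genes, 19 rose and none fell (median 1.04), and their share of reads went from 0.0792% to 0.0816% in CTL to 0.153% to 0.162% in adenine. Idi1, which isomerizes isopentenyl pyrophosphate (chromosome 13, 8935537 to 8942487), was 3.69, 3.61 and 3.62 log2 CPM in CTL and 6.08, 5.93 and 5.90 in adenine, although its reads could be shared with a pseudogene copy (log2 fold change 2.33, adjusted p = 1.27e-14). Hsd17b7 (1.92), of the late steps, Acat2 (1.74), at the entry, and Stard4 (1.46), a sterol carrier, were also among the genes with the largest rises. Fatty acid synthesis genes rose in 9 of 10 cases by less (median 0.31). The 3 efflux genes in the table went the other way, with Apoe falling by 1.34, Abca1 by 0.55 and Nr1h2 by 0.47.

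Matrix genes were mostly higher. Of 17 collagens 16 rose and none fell (median 1.14), and of the 46 genes of collagens and matrix 41 rose and 4 fell (median 0.66). Col3a1, a fibrillar collagen, was 8.92, 8.86 and 8.81 log2 CPM in CTL and 10.86, 10.92 and 10.78 in adenine (log2 fold change 1.99, adjusted p = 9.56e-14). P4ha3, a prolyl hydroxylase (2.23), Fbln1, which binds basement membranes (2.22), and Col8a2 (2.07) rose with it, while Loxl4, a lysyl oxidase, fell by 1.26 and Fn1, fibronectin, by 0.43. The proteoglycans Omd (2.76) and Fmod (2.69) were among the largest rises of all genes. Of 10 metalloproteinases 7 rose, among them Mmp3 (2.48) and Mmp13 (2.03), and 3 fell. Of 3 TIMPs, inhibitors of these enzymes, 2 rose and 1 fell. The one that fell was Timp3, from 11.03 ± 0.012 (SD, n = 3) to 9.52 ± 0.033 log2 CPM. Of 19 contractile and cytoskeletal genes 13 rose and 3 fell (median 0.26), from Acta2, smooth muscle actin, which fell by 0.32, to Actg2, the smooth muscle gamma actin, which rose by 1.60. The CTL values of Actg2 (0.17, 0.2 and 0.15 log2 CPM) and Mmp13 (0.34, 0.25 and 0.21) are near the floor of the table. With other targets, of 33 myofibroblast, SRF and YAP genes 21 rose and 5 fell (median 0.22).

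Growth factor and imprinted genes were among the steep rises. Mest, a paternally expressed gene, was 0.17, 0.22 and 0.41 log2 CPM in CTL and 3.45, 3.52 and 3.29 in adenine, and H19, a maternally expressed long RNA, was 4.65, 4.64 and 4.53 and 7.35, 7.59 and 7.06. In both genes the adenine dishes stand apart from CTL (log2 fold changes 3.15 and 2.73), but the CTL values of Mest are near the floor of the table. Igf1 rose by 1.96, and the binding proteins Igfbp5 by 2.46 and Igfbp2 by 1.73, whereas Igfbp4 fell by 0.73 and Meg3 (0.00) was not called. In all, 13 of 18 genes rose and 3 fell (median 0.75). Of 24 BMP, TGF-beta and Wnt genes, 17 rose and 3 fell (median 0.50), led by Sfrp2, a secreted Wnt binder (2.32), Nkd2 (1.54), Dkk3 (1.43) and the BMP targets Id1 (1.38) and Id3 (1.28). Of the other leading genes, Angpt1, a ligand of the TIE2 receptor (2.97), Crabp1, which binds retinoic acid (2.94), Enpp1, which makes pyrophosphate from ATP (2.80), Serpina3g (2.84), Lrrc15 (3.03) and Nrep (3.01) rose, each with every adenine dish above every CTL dish.

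Immediate early genes and feedback genes of the ERK pathway rose in 24 of 34 cases and fell in 6 (median 0.67). Egr2, a zinc finger factor that growth factors induce (chromosome 10, 67371305 to 67378018), was 0.17, 0.67 and 0.41 log2 CPM in the CTL dishes and 3.77, 3.76 and 3.70 in the adenine dishes. The CTL values are near the floor of the table, and the log2 fold change of 3.33 has a standard error of 0.15 (adjusted p = 2.82e-11). Fos (2.24) and the ERK target Etv4 (1.91) rose, as did the inhibitors Spry1 (1.25) and Dusp6 (0.93). The CTL values of Fos (0.74, 0.88 and 1.21 log2 CPM) were also low. Atf3 fell by 1.63, the largest fall in the list, and Srf, a factor of this response, was not called (0.14, adjusted p = 0.0101). In the NF-kappaB list 17 of 23 genes rose and 3 fell (median 0.50). Traf1 (2.58), Cxcl1 (1.89), Cx3cl1 (1.62) and the inhibitor gene Nfkbia (1.08) were among those that rose. Traf1 was low in CTL, at 1.09, 0.69 and 1.1 log2 CPM. Cxcl12, an abundant chemokine of fibroblasts, was 9.97, 9.93 and 9.99 log2 CPM in CTL and 11.14, 11.11 and 11.18 in adenine.

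The promoter of Egr2, the early gene with the largest rise, is shown because a serum response element lies just upstream of its canonical transcript start. This sequence and those shown later come from the GRCm39 genome and run 5′ to 3′ on the strand of the gene. They belong to the 250 bases before the start of the GENCODE canonical transcript. Capitals here are on the serum response element (CArG box, searched on both strands).
Egr2 (chr10:67373587-67373676, plus strand): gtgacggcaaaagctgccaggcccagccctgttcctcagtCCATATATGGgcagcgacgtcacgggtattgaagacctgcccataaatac
The match ends 56 bases before the canonical transcript start of Egr2, which lies inside the annotated span of the gene (67371305 to 67378018). The element was found in 3 of 34 genes of the list (8.82%), against 1.26% of 10948 protein-coding promoters. Egr3, a related zinc finger factor, was 2.18, 2.04 and 2.09 log2 CPM in CTL and 5.36, 5.31 and 5.35 in adenine (log2 fold change 3.23). A match describes the letters and does not show binding.

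For the replication genes the E2F site was searched as TTTCCCGC, TTTCGCGC, TTTGCCGC or TTTGGCGC on both strands, which can overlap each other. It was in 6 of 52 promoters of that list (11.5%) and in 7 of 36 of the G1 and S phase list (19.4%), against 3.31% of all protein-coding promoters. The shares were lower for the mitosis list, 3 of 55 (5.45%), and the homologous recombination and Fanconi list, 3 of 36 (8.33%). The 4 replication genes with a match and the largest changes are shown, with capitals on the matches.
Dscc1 (chr15:54954082-54954142, minus strand): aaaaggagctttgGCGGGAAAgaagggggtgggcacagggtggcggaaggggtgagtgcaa
Mcm5 (chr8:75835948-75836035, plus strand): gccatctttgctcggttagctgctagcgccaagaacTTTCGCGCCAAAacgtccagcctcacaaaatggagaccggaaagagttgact
Gmnn (chr13:24946102-24946156, minus strand): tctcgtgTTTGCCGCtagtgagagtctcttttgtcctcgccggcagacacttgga
Mcm4 (chr16:15455295-15455382, minus strand): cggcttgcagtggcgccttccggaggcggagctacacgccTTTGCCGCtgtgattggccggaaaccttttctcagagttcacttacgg
These genes rose by 1.76 (Dscc1, a clamp loader subunit), 1.66, 1.65 (Gmnn, the licensing inhibitor geminin) and 1.36 on the log2 scale. In the mitosis list the cell cycle homology region TTTGAA was in 13 of 55 promoters (23.6%, against 12.3% of all) and CCAAT in 26 (47.3%, against 36.8%). In the replication list TTTGAA was in 4 of 52 (7.69%), below the share of all promoters. In the sterol and fatty acid list CCAAT was in 22 of 41 promoters (53.7%), 15 of them among the 20 of sterol synthesis (75.0%). The sterol regulatory element core, TCACNCCAC, was in 4 of the 41 (9.76%), with 1 of them in sterol synthesis (5.0%), against 1.0% of all.

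More interferon-stimulated genes fell than rose. Of 65 such genes searched for, 46 were in the table, and Usp18, Rsad2 and Irf7 were among those absent. Among the 46, 22 fell and 8 rose (median -0.18), although their summed share of reads was 0.176% to 0.181% in CTL and 0.184% to 0.187% in adenine. By role they were uneven, with the antiviral effectors lower (13 of 22, with 2 higher) and antigen presentation split (2 of 7 lower and 4 higher). Ifit1, which binds foreign RNA caps (chromosome 19, 34618271 to 34632174), was 4.55, 4.36 and 4.43 log2 CPM in CTL and 2.41, 2.40 and 2.57 in adenine, with no overlap (log2 fold change -1.99, SE 0.076 and adjusted p = 3.14e-12). Isg15, a ubiquitin-like modifier, was 2.99, 3.04 and 3.14 log2 CPM in CTL and 1.61, 1.89 and 1.80 in adenine. Oasl2 (-1.68), Xaf1 (-1.34) and Irf9 (-0.77), the DNA-binding part of the interferon-activated complex, fell too, while Irf1 rose by 0.87. Reads of Ifit3 (-1.03) could be shared with its paralog Ifit3b (-1.0). The core of the interferon response element, GAAANNGAA on either strand, was in 11 of the 46 promoters (23.9%), against 6.71% of all, and is in capitals below for the genes with a match and the largest changes.
Ifit1 (chr19:34618165-34618253, plus strand): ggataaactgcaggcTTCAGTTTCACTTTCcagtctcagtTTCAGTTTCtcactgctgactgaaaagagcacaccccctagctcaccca
Isg15 (chr4:156285304-156285381, minus strand): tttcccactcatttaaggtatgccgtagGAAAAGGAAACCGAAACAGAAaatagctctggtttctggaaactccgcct
Bst2 (chr8:71990192-71990280, minus strand): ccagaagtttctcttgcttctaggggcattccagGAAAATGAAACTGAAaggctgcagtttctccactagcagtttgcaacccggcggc
Ifit3 (chr19:34560787-34560875, plus strand): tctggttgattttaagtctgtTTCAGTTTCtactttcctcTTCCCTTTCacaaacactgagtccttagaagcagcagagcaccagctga
The matches stand in overlapping or repeated copies in these promoters.

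The response to DZ was measured at 10 µM, so its dose differs from the 1 mM of adenine, and both are measured against the CTL dishes they share. Side by side, the median of the interferon-stimulated genes was -0.18 in adenine and 1.54 in DZ, and Ifit1 was at -1.99 and 3.35. The median of the mitosis genes was 1.65 in adenine and 0.15 in DZ, and that of the cytosolic ribosomal proteins -1.08 and -0.53. No test was made between adenine and DZ.

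**Figure D4:**
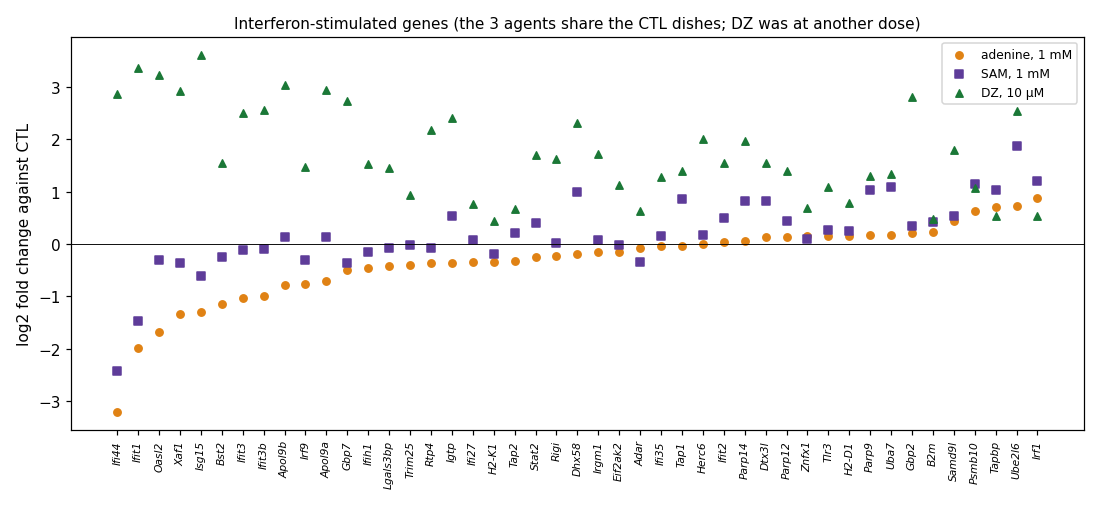
Log2 fold change against CTL (vertical axis) of 45 of the 46 interferon-stimulated genes in the table for adenine, SAM and DZ, ordered by the value in adenine. DZ was used at another dose, and the values of the 3 agents share the CTL dishes. Adenine values run from -3.20 (Ifi44) to 0.87 (Irf1).

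Genes under the stress factor ATF4, which answers amino acid shortage and misfolded protein, were modestly lower. Of 49, 37 fell and 2 rose (median -0.37). Atf3 (-1.63), Trib3 (-1.25), Ppp1r15a (-1.25), the glutamine carrier gene Slc1a5 (-1.11) and Cth (-1.02), of cysteine synthesis, fell most. Ddit3, which encodes CHOP, was 8.08, 8.09 and 8.10 log2 CPM in CTL and 7.25, 7.21 and 7.27 in adenine (log2 fold change -0.85, adjusted p = 9.12e-12). Atf4 was 9.54, 9.51 and 9.56 and 9.26, 9.26 and 9.28, a fall of 0.27 that quantile normalization reduced to -0.06 (adjusted p = 0.109). The cystine carrier gene Slc7a11 (-0.16, adjusted p = 0.016) was not called.
The composite element bound by ATF4 and C/EBP factors (CARE), searched as TGATGNAAT or TGATGNAAC on both strands, was in 9 of the 49 promoters (18.4%) and in 0.813% of all. It is in capitals here for the genes with a match and the largest falls.
Fgf21 (chr7:45265006-45265094, minus strand): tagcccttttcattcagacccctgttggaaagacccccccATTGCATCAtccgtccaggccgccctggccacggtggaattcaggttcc
Ddit3 (chr10:127126320-127126408, plus strand): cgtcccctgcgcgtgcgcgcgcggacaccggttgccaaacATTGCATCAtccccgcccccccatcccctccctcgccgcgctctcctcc
Gpt2 (chr8:86218799-86218887, plus strand): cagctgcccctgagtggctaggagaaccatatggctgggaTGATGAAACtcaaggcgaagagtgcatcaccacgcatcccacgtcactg
Vldlr (chr19:27194179-27194267, plus strand): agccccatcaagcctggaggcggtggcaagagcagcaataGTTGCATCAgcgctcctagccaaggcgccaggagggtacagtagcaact
The fall was 0.87 for Fgf21, a secreted hormone, 0.59 for Gpt2, an alanine transaminase, and 0.48 for Vldlr, a lipoprotein receptor.

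Other lists were split or lower. The 23 genes of endoplasmic reticulum chaperones and sensors had 10 higher and 10 lower (median 0.09), with Pdia4, a foldase, rising by 0.56 and the sensors Atf6 and Ern1 falling by 0.98 and 0.51. Of 41 lysosome genes 24 fell and 8 rose (median -0.20). Neu1, a sialidase, fell by 1.06, and Ctsl, a cathepsin, was 9.21, 9.23 and 9.26 log2 CPM in CTL and 8.32, 8.35 and 8.34 in adenine. Among 22 NRF2 targets 8 fell and 5 rose (median -0.06, and -0.00 with plain read totals), but their share of reads fell from 0.722% to 0.742% in CTL to 0.513% to 0.524% in adenine, with the abundant Ftl1 (ferritin light chain) at -1.05 and Sqstm1, an autophagy receptor, at -1.29, and Nqo1 rising by 1.31. In glycolysis and the hypoxia response 12 of 28 fell and 9 rose (median -0.02, and 0.04 with plain read totals), among them Ndrg1 (-1.34) and Adm (1.53). Of the 68 replication-dependent histone genes of the annotation 5 were in this table of polyadenylated RNA, and 1 rose and 3 fell. H1f2 fell by 1.87 and H4c9 rose by 0.92.

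The methyl cycle, polyamine and methionine salvage genes had 11 of 25 lower and 5 higher (median -0.11), with Mat2a, which makes SAM, falling by 0.59, Mettl16, which methylates its mRNA, rising by 0.22, and Ahcy (-0.03, 95% interval -0.09 to 0.03) not called. Of 63 methyltransferases 16 fell and 15 rose (median -0.03, and 0.03 with plain read totals). Dnmt1, which copies DNA methylation after replication, rose from 6.55 ± 0.037 (SD, n = 3) to 7.87 ± 0.054 log2 CPM. Suv39h2 (1.17), Suv39h1 (1.11) and Gamt (1.16) rose and Nnmt (-0.69) fell. In the core clock list 10 of 23 fell and 2 rose, led by Dbp (-1.35) and Ciart (-1.0) with Bmal1 rising by 0.67.

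Among genes averaging at least 3 log2 CPM, the largest falls outside these lists came in genes of varied function. Reep6, of the endoplasmic reticulum membrane, was 6.53, 6.54 and 6.61 log2 CPM in CTL and 3.87, 3.85 and 3.85 in adenine. Acox2, a peroxisomal oxidase of branched lipids, was 4.75, 4.81 and 4.84 and 2.14, 2.44 and 2.12, and Macrod1, which removes ADP-ribose, was 5.33, 5.48 and 5.42 and 3.08, 3.10 and 3.19. In these 3 genes the groups do not overlap. Pdzd7 (-2.91), Myom2 (-2.38), Thsd4 (-2.25), Zfr2 (-2.23), Paqr3 (-1.97), Abcc4, an exporter of cyclic nucleotides (-1.89), and Tenm4 (-1.82) made up the rest of the most lowered genes with Ifit1 and H1f2.

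SAM and adenine were given at the same dose and for the same time, and the SAM dishes were tested directly against the adenine dishes. SAM carries adenosine joined to methionine through a sulfonium, and adenine is the base of that adenosine. Of all genes 42.7% differed at an FDR under 0.01, 20.8% higher and 22.0% lower in SAM. Of those called, 48.6% were higher in SAM, and 63.2% with plain read totals in place of the scaling of the authors.

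The ATF4 list had the largest median difference of the 31 lists. Of its 49 genes 48 were lower in SAM than in adenine and none was higher, with a median difference of -1.31. Slc7a11 was 6.06, 6.20 and 6.25 log2 CPM in adenine and 3.30, 3.38 and 3.25 in SAM, a difference of -2.86 (95% interval -2.97 to -2.74, adjusted p = 3.37e-15). Trib3 (-2.81), the mitochondrial folate enzyme gene Aldh1l2 (-2.77), Acot2 (-2.57) and the glutathione-degrading Chac1 (-2.46) had the other largest differences among protein-coding genes averaging at least 3 log2 CPM over the SAM and adenine dishes. Collagens and matrix genes were lower in SAM in 35 of 46 cases (median -0.32), and Egr2 was lower by -2.18 on the log2 scale.

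In the other direction, 33 of 41 sterol and fatty acid genes (median 0.63), 36 of 46 interferon-stimulated genes (median 0.43), 42 of 55 mitosis genes (median 0.34) and 38 of 52 replication genes (median 0.32) were higher in SAM than in adenine. Pmvk, of the mevalonate pathway, was 4.03, 3.93 and 3.93 log2 CPM in adenine and 5.35, 5.47 and 5.45 in SAM (difference 1.46). Ctsw (1.75), Mmp13 (1.43), the water channel gene Aqp5 (1.43) and Fam169b (1.30) were the other genes with the largest differences in that direction among protein-coding genes averaging at least 3 log2 CPM over the SAM and adenine dishes. Cytosolic ribosomal proteins were higher in SAM in 45 of 82 cases, by a median of 0.17.

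Several genes called in adenine were not called between the agents. Ccnb2 differed by 0.02 (95% interval -0.12 to 0.16), Rps7 by -0.02 (-0.11 to 0.06), Aprt by 0.01 (-0.09 to 0.11) and Mest by 0.16 (-0.08 to 0.39). Cdkn1a set them apart, at 4.39, 4.45 and 4.45 log2 CPM in adenine and 2.70, 2.61 and 2.88 in SAM, a difference of -1.70 (95% interval -1.89 to -1.51, adjusted p = 7.04e-10).

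**Figure D5:**
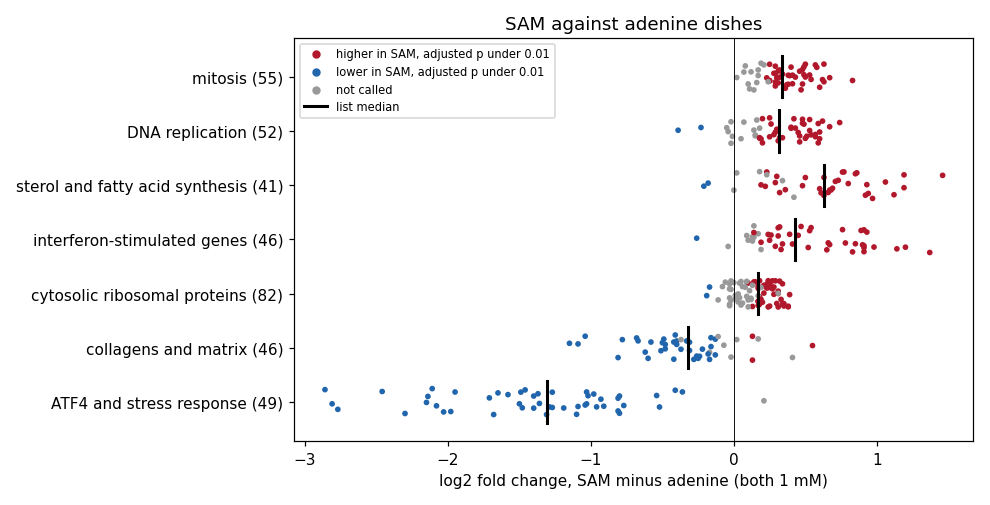
Log2 fold change of SAM minus adenine (horizontal axis) for each member of 7 lists, 1 point per gene with the list median as a black bar. The ATF4 genes lie around -1.31 and the sterol and fatty acid genes around 0.63.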

How the data were processed

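Polyadenylated RNA of 12 dishes was sequenced in stranded paired-end libraries. The authors trimmed reads with Trimmomatic, aligned them to GRCm39 with HISAT2, quantified with StringTie on GENCODE vM27, kept genes of at least 1 CPM in every sample before edgeR was applied. Values deposited by the authors are log2 CPM on normalized library sizes, and how the scaling factors were set is not given in the sources used here. Whole reads were recovered with a prior count of 2 (100% of values whole within 0.1 reads), which gave the depth. These reads are estimates from coverage.

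The deposited log2 values were fitted with limma 3.58.1 in R 4.3.3 (1 mean for each of the 4 groups, eBayes with a variance trend), and p-values were adjusted by Benjamini-Hochberg over 12591 genes. Calls are at an FDR under 0.01. An exact permutation test of 3 against 3 dishes cannot give less than 0.1. The fit was tested on simulated data. Positions are from GENCODE vM39, which matched 12575 of the genes. Sequences were read from the GRCm39 genome.

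The members and the 31 lists were chosen with earlier results of these data known. The histone list was redrawn from the annotation by symbol after its values were seen, without the replacement histone gene H1f0. Named genes are the 12 largest rises and falls among called protein-coding genes averaging 3 log2 CPM or more without overlap between dishes, up to 5 called genes per list with the largest change, the highest and lowest of pattern lists, a set of purine, methyl and regulator genes, and, with the same limits, the 5 highest and lowest between SAM and adenine. Promoters are those with a match and the largest change, up to 4 per list. Some genes and 1 promoter that these rules select are not reported here. Genes named outside this rule were chosen after their values were seen. Tables and plots were made in Python 3.11.15 (pandas 2.3.3, numpy 2.4.6, matplotlib 3.10.9).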

Additional observations from a re-analysis of the deposited data

How the results depend on the processing

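The 7753 genes called in adenine became 3386 when a minimum absolute log2 fold change of 0.5 was also required and 1282 at a minimum of 1, and the 5382 called between SAM and adenine became 1215 and 202, since these minimums remove small changes by construction. The other alternatives (no variance trend, robust empirical Bayes, a mean of at least 3 log2 CPM, median centring, quantile normalization, plain read totals, log2(CPM + 1), voom, the 6 libraries alone, protein-coding genes, an FDR under 0.05) kept each count within 1.5 times. Leaving out 1 library gave 7175 to 7272 calls in adenine and 4490 to 4955 between SAM and adenine. The replicate numbers were not taken to pair the dishes. The deviations of same-numbered CTL and adenine libraries correlated at 0.0717, 0.0826 and 0.0172 across genes. Such weak values do not settle whether same-numbered dishes were handled together. With the replicate block 7739 and 5337 genes were called. Among the genes named by the rule above, no called result reversed under these alternatives. The other called genes were not checked singly in this way. The call of Atf4 was lost under quantile normalization, and Hprt1, Prps2, Srf and Rpl7l1, not called here, were called under at least 1 alternative, Srf also without Adenine replicate 3 (0.17) and without CTL replicate 1 (0.18). The cause was not tested. Plain read totals moved the median of all genes to 0.059 and median centring to -0.054.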

Other observations

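The lists of this section were all added after the values were seen, and the first describe more of the lowered genes of translation. The mRNAs of 24 genes in a further list are known to begin with a run of pyrimidines, as those of ribosomal proteins do. Of these genes 21 fell and none rose (median -0.74, against -0.003 for all genes). The list is not separate from those above, since Npm1 is also in that of ribosome biogenesis. In the search made here, C followed by 4 pyrimidines stood at the annotated start of 7 of 82 cytosolic ribosomal protein genes (8.54%), against 4.21% of all protein-coding genes. The search took only the exact first bases of the canonical transcript, which need not be the start used in these cells. It therefore does not measure how many of the mRNAs begin with such a run. Eef1a1, the elongation factor that brings aminoacyl-tRNA, was 13.25, 13.30 and 13.30 log2 CPM in the CTL dishes and 12.23, 12.21 and 12.21 in the adenine dishes. Eef2 was 13.19, 13.20 and 13.21 and 12.31, 12.28 and 12.27, again without overlap, and the poly(A)-binding protein gene Pabpc1 fell by 0.83. Hnrnpa1 (-0.05), Vim (0.03) and Eef1d (-0.11) were not called.

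Host genes of small nucleolar RNAs, whose introns carry guides for ribosomal RNA modification, were lower in 13 of 15 cases and higher in none (median -1.09), and their share of reads went from 0.119% to 0.122% in CTL to 0.0536% to 0.0561% in adenine. Gas5 was 8.33, 8.39 and 8.42 log2 CPM in CTL and 6.65, 6.67 and 6.65 in adenine, and Zfas1 was 7.57, 7.60 and 7.60 and 5.87, 5.83 and 5.96. Snhg18 (0.01) and Snhg3 (-0.11) were not called.

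All 8 small leucine-rich proteoglycan genes searched and found were higher (median 1.65), among them Aspn (1.42) and Prelp (1.88), from 0.11 (Bgn) to 2.76 (Omd). The count includes Omd and Fmod, whose rises were known when the list was drawn. Omd, Ogn, Aspn and Ecm2 are neighbours on chromosome 13, and Fmod and Prelp on chromosome 1. Of 26 peroxisomal genes 13 fell and 4 rose (median -0.16), so that the change of Acox2 at -2.57 stood apart from Acox3 (-0.36). Of 20 genes of the mitochondrial genome 12 were lower and 1 higher (median -0.21). These counts have no test of their own as lists.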
